A study of Mus musculus with 66 samples.

Results

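The anal section of the mouse gut was compared between 3 mice dissected on day 14 and 4 uninjured mice dissected on day 0, which are 7 of the 66 RNA-seq samples of the series and 7 of its 19 anal samples. The samples were chosen by their labelled section and day alone, and no measured value entered the choice. All mice were wild-type C57Bl/6 animals bought at 6 weeks of age. The day 14 mice (mice 14, 15 and 16) had been given 3% dextran sulfate sodium (DSS), a sulfated polysaccharide that injures the colonic lining, for 6 days from day 0, so they were sampled in the recovery phase. The uninjured mice (mice 1, 2, 3 and 4) received no DSS and were dissected on day 0. They were therefore not age-matched to the day 14 mice, and DSS and the elapsed time cannot be told apart. Rectal, mid-colonic and, in injured mice, squamous neo-epithelial sections (squamous tissue dissected as a section of its own) came from the same animals. By the series text, muscle was dissected away and discarded before RNA was taken. Each sample is labelled with a mouse of its own, so the spread below is between animals.

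The anal canal is the place where the simple columnar epithelium of the colon meets stratified squamous epithelium, with a narrow transition zone and the ducts of anal glands between them. Colonocytes absorb salt and water and goblet cells secrete mucus, while squamous cells form a layered barrier of keratins. DSS colitis erodes the columnar lining, draws in neutrophils and monocytes, and is followed by epithelial repair after DSS is withdrawn.

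Transcript abundance was given as TPM, a length-scaled share of each library, and was summed per gene. Of the 10 squamous marker genes of the anus, all 10 passed the filter on low values, and their summed level ran from 12323 to 21424 TPM at day 0 and from 17743 to 20935 TPM at day 14. This matched the labelled section, but the same libraries also held colonic genes, described below. Read depth is unknown because TPM keeps no depth. Genes reaching 1 TPM numbered 12406 to 13789 in the 4 day 0 libraries and 13080 to 13584 in the 3 day 14 libraries (exact two-sided permutation test, p = 0.686). The share of TPM in the 10 most abundant genes (p = 0.457) and in mitochondrial genes (p = 0.686) also did not pass the same exact permutation test, whose smallest possible p over 35 splits is 0.0286. Skeletal muscle markers, from the sphincter region, took 0.268%, 0.648%, 2.90% and 1.35% of TPM in mice 1 to 4 and 1.73%, 1.45% and 0.651% in mice 14 to 16. Muscle content thus varied widely within each group, and the 2 groups overlapped. In bulk tissue, fewer cells of a type and less RNA per cell cannot be told apart.

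At day 14 the anal section had lost most of its colonic epithelial RNA and held more RNA of the chemokine genes Cxcl5 and Cxcl3, of Il1b, of some myeloid genes and of Ltf, Muc4 and Slc26a4, while few squamous structural genes passed the test. Values were tested as log2(TPM + 1) with limma and adjusted by Benjamini-Hochberg over all 13763 genes that reached 1 TPM in at least 3 samples, and a gene was called at an adjusted p under 0.05. Of these genes, 588 (4.27%) were called, 311 (2.26%) higher and 277 (2.01%) lower at day 14. All 588 had groups that did not overlap, as had 16.9% of all tested genes, and 16.1% of all tested genes had an unadjusted p under 0.05. A change of at least 2 on the log2 scale was seen for 63 of the genes called higher and 154 of those called lower. The count depended on single mice, falling to 162 without mouse 16, 172 without day 0 mouse 2 and 268 without mouse 15. With TMM scaling the split turned to 267 higher and 403 lower. Across the 13763 genes the median difference was 0.04 on the log2 scale (-0.01 after TMM scaling).

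**Figure D1:**
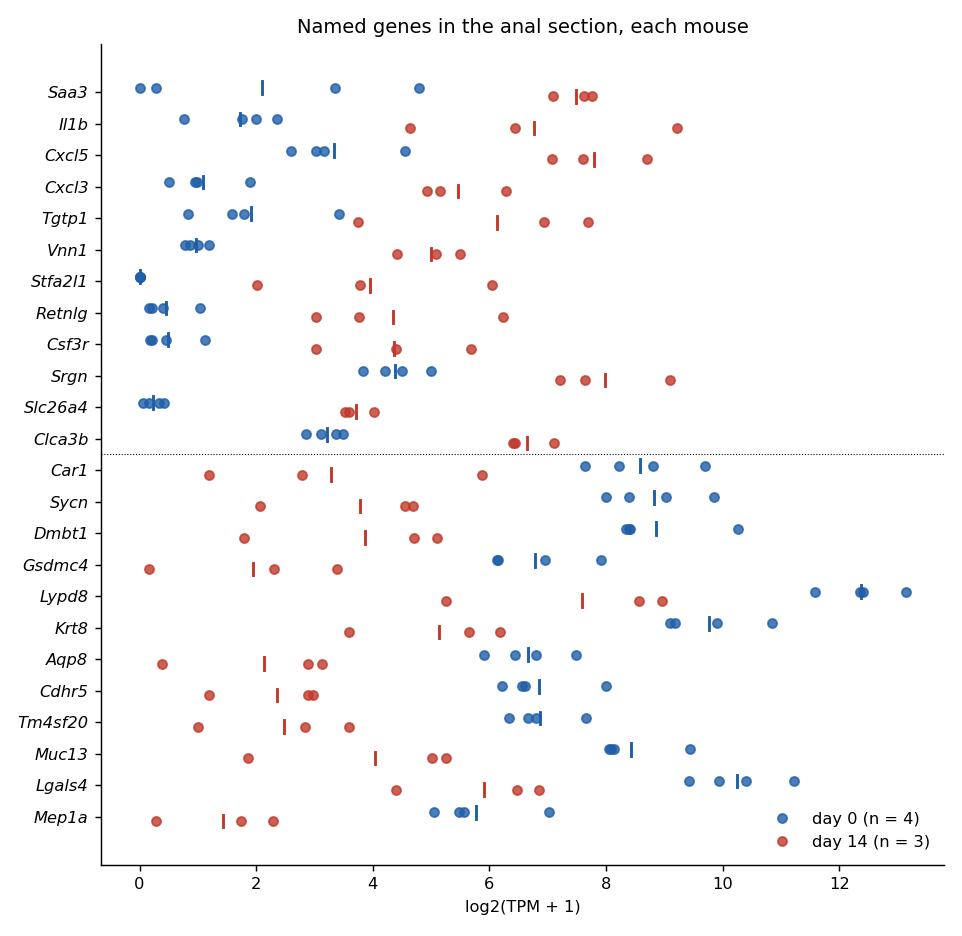
Levels of the 12 genes with the largest rises (above the dotted line) and the 12 with the largest falls among called genes with a mean of at least 8 TPM in the higher group, no overlap between groups and a proper symbol, as log2(TPM + 1), with 1 point for each mouse and a vertical bar at each group mean. Blue points are the 4 day 0 mice and red points the 3 day 14 mice. Day 14 values spread widely for Il1b (23.9 to 592 TPM) and little for Slc26a4 (10.5 to 15.3 TPM), and the absence of overlap was a condition of the choice.

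Colonocyte genes fell furthest. Of 16 genes on this list, 14 passed the filter and 12 were called lower (background 2.01%), none higher, with a median log2 difference of -4.04 over the 14 tested. The summed level of the list was 7576.5, 8334.6, 4962.4 and 15036.1 TPM in mice 1 to 4 and 946, 663 and 177 TPM in mice 14 to 16. The highest injured mouse thus lay well below the lowest uninjured mouse. The day 0 mice alone can carry a gene past the filter, so the filter also favours genes that are high at day 0. The count was lowest, at 6 genes, without day 0 mouse 2 and with no filter on low values (6 of 16). It was 9 without mouse 15 and 10 without mouse 16 or day 0 mouse 4.

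Lypd8, a secreted protein that keeps flagellated bacteria away from the colonic surface, had 5425.5, 5251.5, 3082 and 9062 TPM at day 0 and 495, 376 and 37.3 TPM at day 14. Its log2 difference was -4.78 ± 0.82 (SE; limma, Benjamini-Hochberg adjusted p = 0.0188). Car1, a carbonic anhydrase of surface colonocytes, had 198, 445, 296 and 831.5 TPM at day 0 and 57.9, 5.93 and 1.28 TPM at day 14. This was the largest fall among the named genes, with a log2 difference of -5.30 ± 0.98 (SE; limma adjusted p = 0.0245). Aqp8, a water channel, had 59.4, 110, 85.6 and 179 TPM at day 0 and 6.38, 7.78 and 0.304 TPM at day 14, a log2 difference of -4.53 ± 0.66 (SE; limma adjusted p = 0.0114). In each of these genes mouse 16 was the lowest of the 7 mice. Lgals4, an intestinal galectin, averaged 1348 ± 743 TPM (SD, n = 4) at day 0 and 74.0 ± 48.5 TPM (SD, n = 3) at day 14, an 18.2-fold difference of means. The microvillus genes Cdhr5, a protocadherin that links microvillus tips, and Vil1, the actin bundler villin, fell by 4.49 and 4.18 on the log2 scale. Cdx1, a transcription factor of intestinal identity, fell by 3.46, with 21.2 ± 13.6 TPM (SD, n = 4) at day 0 and 0.858 ± 0.560 TPM (SD, n = 3) at day 14.

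Other genes of the colonic surface were among the 12 named falls. The mucin-like membrane protein gene Muc13 fell from 376 ± 210.5 to 23.7 ± 18.5 TPM, the brush-border protease gene Mep1a from 62.5 ± 44.2 to 2.15 ± 1.855 TPM, and the scavenger-receptor gene Dmbt1 from 556 ± 448 to 20.25 ± 15.9 TPM (SD, n = 4 and 3). Tm4sf20, a tetraspan membrane protein gene, fell by 4.39 on the log2 scale and Gsdmc4, a gasdermin C family gene, by 4.83. The Gsdmc genes are near-identical neighbours, so reads may be split among them. The calls of Lypd8, Muc13, Dmbt1 and Gsdmc4 were lost without day 0 mouse 2, with limma adjusted p of 0.0638, 0.0644, 0.0518 and 0.0509. The call of Car1 was lost without mouse 15 (limma adjusted p = 0.0849), mouse 16 (0.0721), day 0 mouse 2 (0.0823) or day 0 mouse 4 (0.0564). The other 2 colonocyte genes tested were not called. Car2 had a log2 difference of -1.40 ± 0.39 (SE) and Guca2a, a guanylin precursor, -1.81 ± 0.69 (SE), with limma adjusted p of 0.0954 and 0.236. Cdx2 and Slc9a3 did not pass the filter in these samples.

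Genes of mucus-secreting cells followed in part. Of 12 goblet and secretory genes, 8 were tested and 3 were called lower (background 2.01%), with a median log2 difference of -2.33. Sycn, the zymogen granule protein syncollin, had 336, 523, 254 and 928 TPM at day 0 and 24.8, 22.6 and 3.20 TPM at day 14, a log2 difference of -5.05 ± 0.67 (SE; limma adjusted p = 0.00916). Sycn stayed called in every setting tried. Fcgbp, a mucus-binding protein, fell by 2.23 and Agr2, a disulfide isomerase for mucin folding, by 2.42 on the log2 scale. The call of Fcgbp was lost without any of 6 mice (limma adjusted p up to 0.118, without day 0 mouse 2) and that of Agr2 without any of 5 (up to 0.133, without mouse 16). The main gel-forming mucin gene Muc2 was not called. It had 24.3, 37.7, 40.3 and 154 TPM at day 0 and 18.8, 19.4 and 3.35 TPM at day 14, so the groups did not overlap, but mice 14 and 15 lay close to day 0 mouse 1 (limma adjusted p = 0.182). Zg16, a goblet-cell lectin, overlapped between groups, with 132 to 502.5 TPM at day 0 and 154, 209 and 8.78 TPM at day 14.

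Of the simple and transitional keratins named here, Krt8 and Krt18 fell and Krt7 rose. Krt8, the basic keratin of simple epithelium, had 580, 957, 549 and 1833 TPM at day 0 and 71.5, 49.2 and 11.1 TPM at day 14. Its log2 difference was -4.62 ± 0.64 (SE; limma adjusted p = 0.0101), and that of its partner Krt18 was -3.18 ± 0.57 (SE; limma adjusted p = 0.0215). Krt7, a keratin of transitional and ductal epithelium, moved the other way, from 325.5, 186, 213 and 224 TPM to 656, 442 and 416 TPM (log2 difference 1.09 ± 0.23, SE; limma adjusted p = 0.0409). The call of Krt7 was lost in 9 of its 14 alternatives (highest limma adjusted p = 0.117, without day 0 mouse 2), among them the omission of any mouse but day 0 mouse 1, and with TMM scaling. That of Krt18 was lost without mouse 15, mouse 16 or day 0 mouse 2 (0.0598, 0.0743 and 0.0712). Krt19, which both simple and transitional epithelium express, had a log2 difference of -0.35 ± 0.34 (SE; limma adjusted p = 0.742). Within the 12 anorectal transition and simple keratin genes, all tested, 2 rose (Krt7 and Muc4, background 2.26%) and 2 fell (Krt8 and Krt18, background 2.01%).

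Part of the genes that fell were more abundant in the neighbouring rectum, read in mice outside the comparison. In the 3 mice of day 3, 90 of the 277 genes called lower (32.5%) had at least 4-fold more TPM in the rectal than in the anal section (mean TPM + 1), against 1.74% of all tested genes. None of the 311 genes called higher did. The reverse bias, at least 4-fold more in the anal section, was found for 2.17% of the genes called lower, 15.8% of those called higher and 8.19% of all tested genes. This day 3 comparison was chosen after the results had been seen. Where the anal section was cut relative to the rectum was not recorded in the labels and its part in the result was not tested.

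Neutrophil-attracting chemokines and IL-1 beta rose. The list of 20 chemokines and inflammatory cytokines had 9 genes that passed the filter, of which 5 were called higher (background 2.26%) and none lower, with a median log2 difference of 1.94. Without day 0 mouse 2 there were 2 calls. With no filter on low values 3 of all 20 were called, with a median of 0.94. The day 14 mice alone can carry a gene past the filter, as they did for Cxcl1, so the filter favours genes that are high at day 14. The 11 other genes, among them Il6, Il11 and Il17a, did not pass. Cxcl5, a ligand of the neutrophil receptor CXCR2 made by epithelium, had 22.3, 5.04, 7.11 and 7.97 TPM at day 0 and 193, 133 and 414 TPM at day 14 (log2 difference 4.46 ± 0.51, SE; limma adjusted p = 0.00772). Cxcl3, another CXCR2 ligand, had 2.71, 0.940, 0.974 and 0.418 TPM at day 0 and 34.8, 29.6 and 77.3 TPM at day 14 (log2 difference 4.38 ± 0.41, SE; limma adjusted p = 0.00479). Both genes stayed called in every setting tried, and in both mouse 16 was highest. Ppbp, the precursor of another CXCR2 ligand, was already abundant, with 1268, 670, 717 and 646 TPM at day 0 and 3981, 2014 and 3543 TPM at day 14 (log2 difference 1.94 ± 0.31, SE; limma adjusted p = 0.0149). Its call was lost without mouse 16 (limma adjusted p = 0.0688) or day 0 mouse 2 (0.0555). Cxcl1 rose at a low level, with 0.387 ± 0.086 TPM (SD, n = 4) at day 0 and 2.52 ± 1.04 TPM (SD, n = 3) at day 14, and its call was lost without mouse 15, mouse 16 or day 0 mouse 2 (limma adjusted p of 0.0813, 0.0873 and 0.071).

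Il1b, the gene of IL-1 beta, had 4.10, 2.99, 0.698 and 2.37 TPM at day 0 and 85.4, 23.9 and 592 TPM at day 14. The injured mice differed widely among themselves, but all lay above the uninjured mice, and the log2 difference was 5.05 ± 0.93 (SE; limma adjusted p = 0.0238). The call was lost without mouse 14 (limma adjusted p = 0.0572), day 0 mouse 2 (0.0712) or day 0 mouse 4 (0.0524). Cxcl2 was not called although its groups did not overlap, at 0.588, 0, 0.611 and 1.05 TPM against 7.07, 4.72 and 189 TPM (log2 difference 3.77 ± 1.07, SE; limma adjusted p = 0.102). Tnf had 1.07 to 1.62 TPM at day 0 and 2.78, 2.275 and 9.64 TPM at day 14 (limma adjusted p = 0.155). Among 10 epidermal IL-1 family genes, of which 9 were found and tested, Il33 alone was called, higher (background 2.26%). Il33 had 11.25 to 17.3 TPM at day 0 and 62.45, 22.4 and 54.1 TPM at day 14. Its call was lost without any of 5 mice (limma adjusted p up to 0.155, without mouse 16).

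The chemokine genes lie together on chromosome 5 of the mouse genome (GRCm38): Cxcl5 at 90759360-90761624 and Cxcl3 at 90786103-90789600, both on the plus strand, with Cxcl1 at 90891241-90893115. Promoter stretches of 250 bases before the RefSeq start site (GRCm38.p6) were searched for motifs, and those printed below were picked because they hold them. RefSeq entries were matched by symbol for 230 of 310 symbols called higher, 196 of 277 called lower and 10181 of 13727 tested. Both strands were searched. Cxcl3 and Cxcl1 share the NF-kB-like motif GGANTTTCC (N, any base), in capitals below. Slc26a4 holds it too, but Ppbp, Il1b, Saa3, Csf3r, Retnlg, Srgn, Stfa2l1 and Clca3b, all called higher, do not. Tgtp1, an interferon-inducible GTPase gene of chromosome 11 described below, holds the NF-kB-like motif. A STAT-like motif (TTCCNGGAA) and an interferon-element-like motif (GAAANNGAA) follow in Tgtp1, all in capitals in that order.
Cxcl3, chr5:90785851-90786100, plus strand: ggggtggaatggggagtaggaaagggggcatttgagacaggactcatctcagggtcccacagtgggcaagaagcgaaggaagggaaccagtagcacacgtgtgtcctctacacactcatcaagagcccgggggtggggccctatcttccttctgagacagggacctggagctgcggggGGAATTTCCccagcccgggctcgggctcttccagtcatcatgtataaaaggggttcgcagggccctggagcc
Cxcl1, chr5:90890995-90891244, plus strand: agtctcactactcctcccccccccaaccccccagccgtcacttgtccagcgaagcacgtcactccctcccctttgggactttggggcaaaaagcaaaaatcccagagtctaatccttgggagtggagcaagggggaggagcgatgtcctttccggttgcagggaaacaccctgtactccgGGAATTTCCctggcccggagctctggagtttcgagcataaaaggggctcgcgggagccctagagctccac
Tgtp1, chr11:48992247-48992496, minus strand: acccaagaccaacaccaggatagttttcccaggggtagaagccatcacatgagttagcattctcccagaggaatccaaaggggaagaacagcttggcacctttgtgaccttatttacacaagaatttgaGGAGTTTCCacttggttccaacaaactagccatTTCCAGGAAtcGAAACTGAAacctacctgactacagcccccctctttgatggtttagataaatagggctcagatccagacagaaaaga
The NF-kB-like motif was found in 3.04% of matched promoters of genes called higher, 1.02% of those called lower and 1.2% of all tested. For the interferon-element-like motif the shares were 12.2%, 6.12% and 6.55%. A motif of the colonic factor HNF4 (AAAGTCCA) was found in 2.17% of promoters of genes called higher, 4.59% of those called lower and 0.982% of all, and a CDX-like motif (TTTATNG) in 7.83%, 14.3% and 6.93%. Read on the opposite strand, the CDX-like motif also matches CTATAAA, the letters of a TATA box. Il1b, Slc26a4 and Muc4, all called higher, hold CTATAAA close to the start site. The CDX-like shares therefore do not count CDX sites alone. All these shares describe letters in a window and were not tested.

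Neutrophil genes mostly had higher values. Of 16 genes, 15 were tested, 13 had a positive difference, 3 were called higher (background 2.26%) and 1 lower (2.01%), and the median log2 difference was 1.93. Without day 0 mouse 2 only 1 gene was called higher, and 5 were without mouse 15. With no filter on low values 1 of 16 was called higher and 1 lower. Csf3r and Retnlg passed the filter through the day 14 mice, so their calls partly rest on it. Csf3r, the G-CSF receptor, had 1.19, 0.129, 0.371 and 0.159 TPM at day 0 and 20.1, 7.13 and 50.2 TPM at day 14 (log2 difference 3.87 ± 0.56, SE; limma adjusted p = 0.0114). It stayed called in every setting tried. Retnlg, a resistin-like gene of mouse neutrophils, had 0.120, 0.166, 1.05 and 0.320 TPM at day 0 and 12.53, 7.18 and 73.9 TPM at day 14 (log2 difference 3.88 ± 0.67, SE; limma adjusted p = 0.0197). The lectin receptor gene Clec4d rose by 3.04 on the log2 scale. Calls of Retnlg and Clec4d were lost without day 0 mouse 2 (limma adjusted p of 0.0675 and 0.0554). Stfa2l1, a stefin-like gene, was listed at 0 in all 4 uninjured mice and had 12.8, 3.06 and 64.9 TPM at day 14 (limma adjusted p = 0.0294). It lost its call without mouse 14 or any 1 uninjured mouse (0.053 to 0.0917) and belongs to a family of near-identical stefin genes. Srgn, the granule proteoglycan serglycin of blood cells, had 31.0, 13.3, 21.7 and 17.4 TPM at day 0 and 198, 148 and 544 TPM at day 14 (log2 difference 3.60 ± 0.45, SE; limma adjusted p = 0.00837). In all of these genes mouse 16 was highest.

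S100a8 and S100a9, the calprotectin subunits, were not called. S100a8 had 524, 209, 176 and 130 TPM at day 0 and 335, 697 and 2249 TPM at day 14, so the groups overlapped (log2 difference 1.85 ± 0.66, SE; limma adjusted p = 0.195). Squamous epithelium also expresses both genes, and neither marks neutrophils alone here. Ly6g, the surface marker used to sort neutrophils, went against its list, from 114, 112, 77.8 and 178 TPM at day 0 to 15.2, 12.8 and 6.64 TPM at day 14 (log2 difference -3.28 ± 0.33, SE; limma adjusted p = 0.00539). In the rectal sections of the same mice it had 602 to 736 TPM at day 0 and 586 to 803 TPM at day 14, far above the anal values.

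All 18 monocyte and macrophage genes were tested and all 18 had a positive difference, with a median of 1.03 on the log2 scale, and 5 were called higher (background 2.26%). Lyz2, the lysozyme gene of myeloid cells, had 244, 167, 155 and 238 TPM at day 0 and 346, 553.5 and 493 TPM at day 14 (log2 difference 1.21 ± 0.23, SE; limma adjusted p = 0.028). The complement genes C1qa and C1qb rose by about the same, with log2 differences of 0.96 each. Fcgr4, an activating IgG receptor, had 0.241 to 1.16 TPM at day 0 and 5.07, 16.8 and 24.7 TPM at day 14. Itgam, the integrin chain CD11b, rose by 1.96 on the log2 scale. The list had 0 calls without mouse 16 or without day 0 mouse 2, 1 without mouse 15, 2 with TMM scaling and 11 when all 19 anal samples shared 1 fit.

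MHC class II genes had 3 calls among 7 tested of 8, all higher (background 2.26%). H2-Ab1 had 224, 229, 221 and 223 TPM at day 0 and 368, 479 and 348 TPM at day 14 (log2 difference 0.81 ± 0.15, SE; limma adjusted p = 0.0218), and its partners H2-Aa and H2-Eb1 rose by 0.79 and 0.88. Uninjured mice lay within a few TPM of each other for H2-Ab1. The list had 0 calls with TMM scaling, with all 19 anal samples in 1 fit, or without mouse 15, mouse 16 or day 0 mouse 2. T and NK cell genes had 1 call among 8 tested of 16, higher (background 2.26%). It was Gzma, a granzyme, which went from 0 to 0.342 TPM at day 0 to 1.04, 4.58 and 2.78 TPM at day 14. Gzma thus passed the filter through the day 14 mice alone. Its call was lost without any mouse but mouse 14 (limma adjusted p up to 0.135, without mouse 16). B and plasma cell genes had 0 limma calls among 6 tested of 15 (2 at an unadjusted p under 0.05).

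Interferon-stimulated genes had higher values at day 14, for most of those named in mice 15 and 16 above all. All 16 tested of 18 had a positive difference, the median log2 difference was 1.63, and 2 were called higher (background 2.26%), with 13 at an unadjusted p under 0.05. Only 1 was called without mouse 15, mouse 16 or day 0 mouse 2, 3 or 4, or with TMM scaling, and 5 without day 0 mouse 1. Mx1, an antiviral GTPase, had 1.21, 0.395, 0.708 and 0.914 TPM at day 0 and 5.50, 8.22 and 4.73 TPM at day 14 (log2 difference 1.98 ± 0.25, SE; limma adjusted p = 0.00908) and stayed called in every setting that tested it. Zbp1, a nucleic acid sensor, had 24.1, 10.5, 8.30 and 6.98 TPM at day 0 and 29.6, 57.3 and 69.05 TPM at day 14, and its call was lost in 8 of 14 alternatives (highest limma adjusted p = 0.1565, without mouse 16; 0.127 without mouse 15, 0.11 without day 0 mouse 2, 0.0731 without day 0 mouse 3 and 0.0746 without day 0 mouse 4). Tgtp1 had 2.01, 9.71, 2.45 and 0.779 TPM at day 0 and 12.5, 122 and 205 TPM at day 14 (log2 difference 4.22 ± 0.94, SE; limma adjusted p = 0.0455). The call of Tgtp1 was lost without any mouse but mouse 14 (limma adjusted p of 0.0649 to 0.169), and the gene has a near-identical neighbour. Gbp2, another such GTPase, had 15.9, 13.2, 11.3 and 8.70 TPM at day 0 and 23.9, 193 and 199 TPM at day 14 (limma adjusted p = 0.0508). Mouse 14 lay closest to the uninjured mice for Zbp1, Tgtp1 and Gbp2, though not for Mx1, and without it 11 of 18 tested genes of the list were called.

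**Figure D2:**
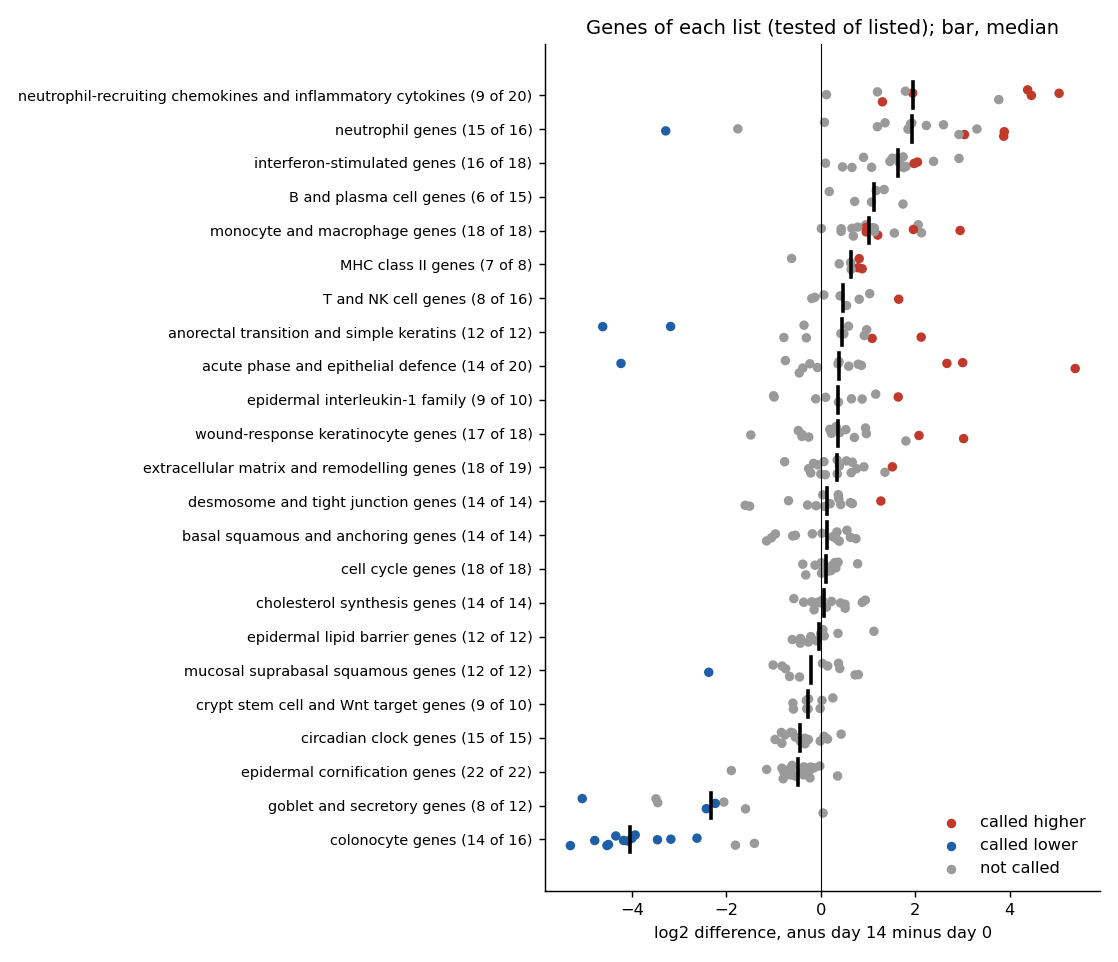
Log2 differences (day 14 minus day 0) of every tested gene of the 23 gene lists, with the number tested of the number listed in brackets. Red and blue points are genes called higher and lower, grey points are not called, and black bars are medians, which run from -4.04 for colonocyte genes to 1.94 for chemokines and cytokines.

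Defence proteins split by gene. Of 20 acute-phase and epithelial defence genes, 14 were tested, 3 rose (background 2.26%) and 1 fell (2.01%), and 1 rose without mouse 16 or day 0 mouse 2. Ltf, the iron-binding protein lactoferrin of neutrophils and glandular epithelium, had 548, 257, 323 and 338 TPM at day 0 and 2718, 2693 and 3102 TPM at day 14 (log2 difference 3.00 ± 0.24, SE; limma adjusted p = 0.00223). The 3 injured mice lay close together for Ltf, unlike the neutrophil genes above. Lcn2, a siderophore-binding protein, rose, with 14.4, 16.4, 40.9 and 18.6 TPM at day 0 and 82.6, 143 and 216.5 TPM at day 14, and its call was lost without mouse 16 or day 0 mouse 2 (limma adjusted p of 0.0547 and 0.0527). Saa3 and Saa1, both serum amyloid A genes, went in opposite directions. Saa3 was listed at 0, 0.221, 26.7 and 9.17 TPM at day 0 and had 135, 197 and 217 TPM at day 14 (log2 difference 5.39 ± 1.09, SE; limma adjusted p = 0.0326), and its call was lost without mouse 14, 15 or 16 or day 0 mouse 2 (0.0732, 0.103, 0.127 and 0.0925). The call of Saa3 was also lost with a pseudocount of 0.1 TPM (limma adjusted p = 0.0838) and with no filter on low values (0.0924). Saa1 had 711, 598, 330 and 848 TPM at day 0 and 36.6, 76.2 and 9.66 TPM at day 14 (log2 difference -4.23 ± 0.61, SE; limma adjusted p = 0.0114). In the rectum Saa1 had 1496 to 2856 TPM at day 0 and 2466 to 3496 TPM at day 14, far above the anal values on both days.

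In a group of 4 genes all 3 injured mice lay above the uninjured mice, close together for Slc26a4 and Muc4 and further apart for Clca3b and Vnn1. Such a lack of overlap does not set them apart, as all 588 called genes and 16.9% of all tested genes had it, in either direction. Slc26a4 and Vnn1 passed the filter through the day 14 mice. Slc26a4, the anion exchanger pendrin, had 0.253, 0.037, 0.116 and 0.339 TPM at day 0 and 10.5, 11.0 and 15.3 TPM at day 14 (log2 difference 3.47 ± 0.21, SE; limma adjusted p = 0.00102). Clca3b, a chloride channel accessory gene with close paralogs, had 10.2, 6.25, 9.38 and 7.64 TPM at day 0 and 83.3, 138 and 85.4 TPM at day 14 (log2 difference 3.44 ± 0.24, SE; limma adjusted p = 0.00102). Muc4, a membrane-bound mucin, had 19.7, 23.8, 20.8 and 17.9 TPM at day 0 and 99.8, 86.0 and 92.35 TPM at day 14 (log2 difference 2.13 ± 0.15, SE; limma adjusted p = 0.00102). Vnn1, a pantetheinase, had 0.995, 0.825, 1.29 and 0.725 TPM at day 0 and 44.0, 20.5 and 32.8 TPM at day 14 (log2 difference 4.04 ± 0.27, SE; limma adjusted p = 0.00102). These 4 genes kept their calls in every setting tried and, with Enpp3, an ectonucleotidase, and Ifi209, an interferon-inducible gene, shared the lowest adjusted p of all 588 calls. They were grouped here after their values were seen, and share no list.

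Few squamous genes passed the test. Of 14 basal and anchoring genes 0 were called by limma, with 4 at an unadjusted p under 0.05 and a median log2 difference of 0.14. Krt14, the basal keratin, had 1208, 2599, 2427 and 2609 TPM at day 0 and 4998, 3591 and 2468 TPM at day 14 (limma adjusted p = 0.327). Of 12 mucosal suprabasal genes, 1 was called lower (background 2.01%), the transglutaminase gene Tgm3. It had 76.25, 102, 72.6 and 216 TPM at day 0 and 17.8, 19.5 and 21.25 TPM at day 14 (log2 difference -2.37 ± 0.35, SE, limma adjusted p = 0.0128). In the rectum Tgm3 was more abundant, with 529 to 636 TPM at day 0. Krt13, the main mucosal suprabasal keratin, overlapped, with 3203 to 8919 TPM at day 0 and 5454, 8267 and 6063 TPM at day 14. Of 22 cornification genes 0 were called by limma (7 at an unadjusted p under 0.05), although 21 had a negative difference (median -0.49). Krt10, an epidermal keratin, had 937 to 2245 TPM at day 0 and 630, 1128 and 1264 TPM at day 14. Of 12 lipid barrier genes 0 were called (1 at an unadjusted p under 0.05). Day 0 mouse 1 had the highest summed cornification level (33802.5 TPM) and the lowest summed basal level (2423 TPM) of the uninjured mice.

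Of 18 wound-response keratinocyte genes, 17 were tested and 2 were called higher (background 2.26%). Only 1 was called higher with no filter on low values, with TMM scaling, or without mouse 14, mouse 16 or day 0 mouse 2 or 3. Without mouse 15 or day 0 mouse 1 there were 3 called higher. Dynap, a membrane protein gene, had 0.558, 0.498, 0.994 and 0.906 TPM at day 0 and 32.1, 8.28 and 8.02 TPM at day 14 (log2 difference 3.02 ± 0.44, SE; limma adjusted p = 0.0121), with mouse 14 highest. Dynap thus passed the filter through the day 14 mice alone, and it stayed called in every setting tried. Sprr2d, a small proline-rich cornified envelope protein gene with close paralogs, had 528, 343, 204 and 154 TPM at day 0 and 948, 1142 and 1455 TPM at day 14, and its call was lost without any of 5 mice (limma adjusted p up to 0.116, without mouse 16). The wound keratins were not called and differed in sign, with log2 differences of 0.71 ± 0.19 for Krt6a, -1.48 ± 0.38 for Krt16 and -0.25 ± 0.44 for Krt17 (SE; limma adjusted p of 0.0806, 0.0745 and 0.881). Among 14 desmosome and tight junction genes only Dsg3, a squamous desmoglein, was called, higher (background 2.26%). Dsg3 had 18.2, 16.3, 25.03 and 23.9 TPM at day 0 and 61.0, 47.8 and 45.6 TPM at day 14 (log2 difference 1.27 ± 0.20, SE, limma adjusted p = 0.0144, and 0.0508 without mouse 16).

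Of 18 tested matrix and remodelling genes 1 was called higher (background 2.26%), the metalloproteinase inhibitor gene Timp1. It had 8.70 to 14.7 TPM at day 0 and 25.7, 40.3 and 34.4 TPM at day 14 (limma adjusted p = 0.0131, and 0.0535 and 0.0608 without mouse 15 or 16). There were 0 limma calls among 18 cell cycle genes (median 0.12; 1 at an unadjusted p under 0.05), 9 tested crypt stem cell and Wnt target genes (median -0.27; 0), 14 cholesterol synthesis genes (median 0.08; 4) and 15 circadian clock genes (median -0.43; 5). The hour of dissection is not given in the sources used here. Markers of other tissues had 0 limma calls. At an unadjusted p under 0.05 there were 0 of 16 tested skeletal muscle, 10 smooth muscle, 14 hair follicle, 3 melanocyte and 5 nerve and glia genes, 1 of 8 fibroblast, 4 of 12 early stress, 5 of 8 endothelial, 5 of 5 erythroid and 8 of 13 sebaceous and anal gland genes, against 16.1% of all tested genes. Their part in the results above was not tested. The exception was adipocyte genes, of which 1 of 8 was called higher at day 14 (background 2.26%), while 7 of the 8 had negative differences. The called gene was Retn (18.5 ± 12.1 to 62.7 ± 8.0 TPM, SD, n = 4 and 3). The call of Retn was lost without any mouse but day 0 mouse 3 (limma adjusted p up to 0.119, without mouse 15). Of the 13 sebaceous and anal gland markers 12 had a positive difference (median 0.94), and their summed level was 322 to 1239 TPM at day 0 and 1177 to 1705 TPM at day 14.

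Some called genes were neighbours in the genome, counted as 3 or more tested genes in a row called the same way. On chromosome 1, at 173747293-173982744, 6 genes of the interferon-inducible Ifi200 cluster were all called higher: Ifi204, Gm7897, Mndal, Ifi211, Ifi203 and Ifi202b. On chromosome 15, at 63824346-63912297, Gsdmc2, Gsdmc3, Gsdmcl2 and Gsdmc4 were called lower, as were Cyp2d10, Cyp2d9, Cyp2d12 and Cyp2d34 at 82402846-82620946. H2-Ab1, H2-Aa and H2-Eb1 formed such a run on chromosome 17, at 34257689-34316674. Most of these neighbours are paralogs, among which reads can be shared. In all, 5 such runs of genes called higher and 5 of genes called lower were found.

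The 3 injured mice were compared across their 4 sections for 3 genes. Il1b was highest in mouse 16 in the anus (85.4, 23.9 and 592 TPM in mice 14, 15 and 16), the rectum (52.25, 395 and 982 TPM) and the mid-colon (21.2, 81.8 and 97.1 TPM), but in the neo-epithelium mouse 14 was highest (621, 164 and 326 TPM). Gbp2 was lowest in mouse 14 in every section, at 23.9 against 193 and 199 TPM in the anus, 67.1 against 660 and 621 TPM in the rectum, 219 against 1158 and 822.5 TPM in the neo-epithelium and 31.9 against 336 and 452 TPM in the mid-colon. Krt14 ran from 2468 to 4998 TPM in the anus and from 5586 to 5851 TPM in the neo-epithelium, with mouse 14 highest in the anus and mouse 15 in the neo-epithelium. In the rectum Krt14 was lowest in mouse 14 (16.5, 380 and 274 TPM), and in the mid-colon it had 3.59, 4.53 and 2.76 TPM. These genes were picked after their values were seen, and no test of a mouse effect was run.

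**Figure D3:**
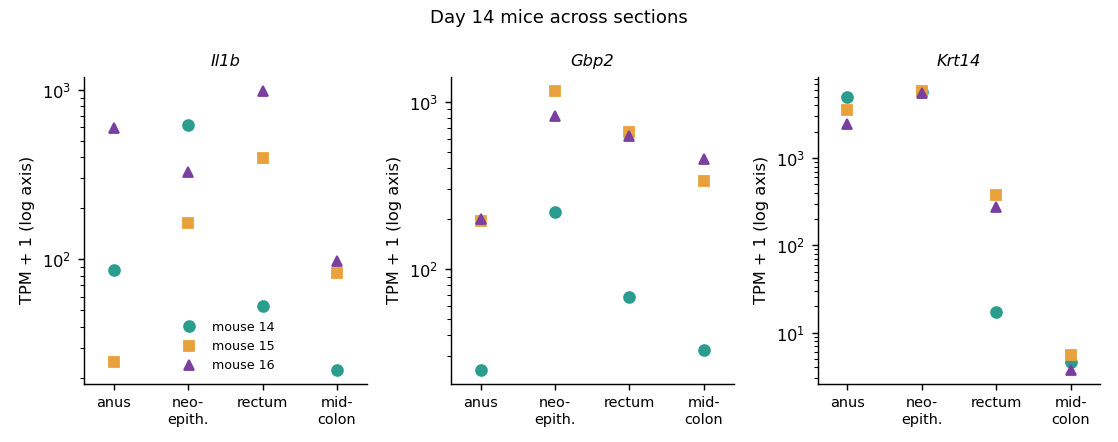
Il1b, Gbp2 and Krt14 in the 4 sections of each day 14 mouse, as TPM + 1 on a log axis, with 1 symbol for each mouse. Gbp2 is lowest in mouse 14 in all 4 sections, and Il1b is highest in mouse 16 in all but the neo-epithelium.

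Against day 6, the last day of DSS, the day 14 anus differed in 872 of 13455 genes (6.48%), 507 (3.77%) higher and 365 (2.71%) lower. The named genes of this comparison are its 4 largest rises and 4 largest falls under the naming rule. Mmp10, a stromelysin, had 169, 127 and 85.5 TPM at day 6 and 2.81, 0.200 and 1.13 TPM at day 14 (log2 difference -5.85 ± 0.44, SE; limma adjusted p = 0.00157), against at most 0.356 TPM at day 0. The collagenase gene Mmp13 (73.5-fold), the IL-33 receptor gene Il1rl1 (51.0-fold) and Cxcl1 (29.5-fold) were also lower at day 14 by their means. Ltf was the largest of the 4 named rises, with 52.1, 26.0 and 51.3 TPM at day 6, below its day 0 values, and 2693 to 3102 TPM at day 14 (log2 difference 6.07 ± 0.27, SE; limma adjusted p = 0.000323). Muc4 (59.0-fold), Clca3b (56.8-fold) and Ifit1bl1, an interferon-induced gene (83.6-fold), were higher at day 14 by their means. At day 6 these genes, too, lay below their day 0 values. Ifit1bl1 had 36.3 to 65.6 TPM at day 0, 0.484 to 5.17 TPM at day 6 and 80.95, 161 and 318 TPM at day 14. All 8 genes kept their calls in every setting tried. The count fell to 272 without day 6 mouse 10, 283 without mouse 9, 287 without mouse 15, 370 without mouse 8 and 513 without mouse 16.

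**Figure D4:**
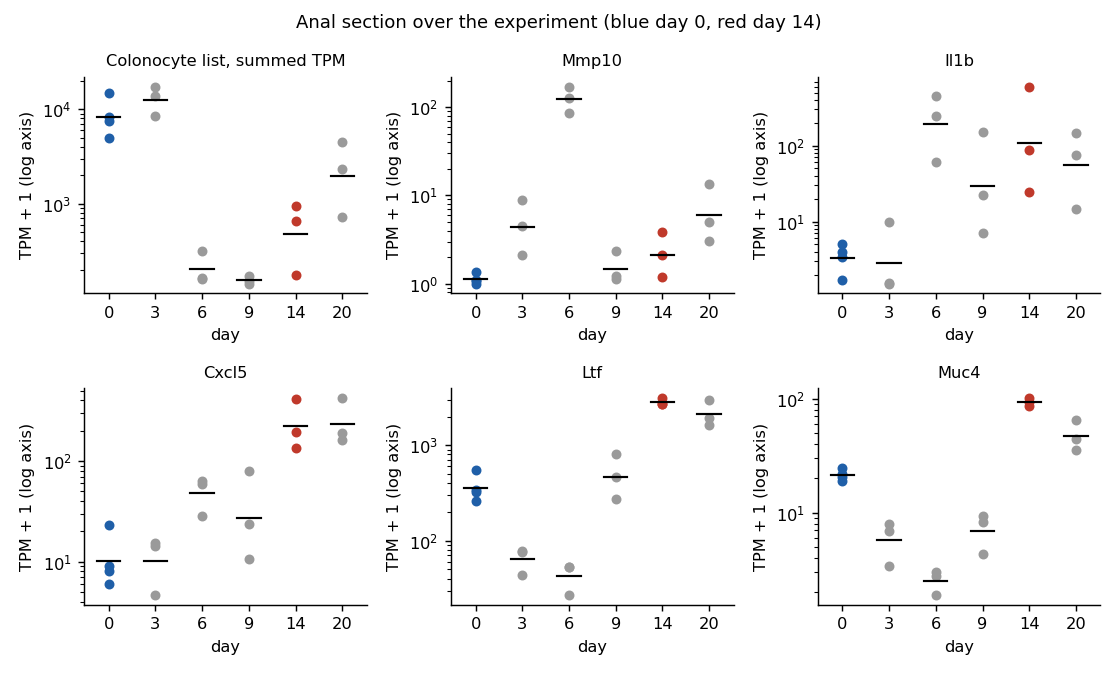
Levels in every anal sample over days 0, 3, 6, 9, 14 and 20, as TPM + 1 on a log axis, for the summed colonocyte list and for Mmp10, Il1b, Cxcl5, Ltf and Muc4. Bars are geometric means, blue is day 0 (4 mice) and red day 14 (3 mice), and the colonocyte sum is 142 to 171 TPM at day 9, 177 to 946 TPM at day 14 and 729 to 4469 TPM at day 20.

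Against day 9, 27 of 13373 genes (0.202%) were called, 26 (0.194%) higher and 1 (0.00748%) lower. Muc4 had 8.43, 3.31 and 7.21 TPM at day 9 and 86.0 to 99.8 TPM at day 14 (log2 difference 3.75 ± 0.29, SE; limma adjusted p = 0.0108). Slc26a4 had 0.209, 0.143 and 0.697 TPM at day 9 against 10.5 to 15.3 TPM at day 14, and the groups did not overlap. Pigr, the receptor that carries IgA across epithelium, had 0.678, 3.19 and 1.56 TPM at day 9 and 30.9, 40.4 and 25.1 TPM at day 14, still below its 160 to 601 TPM at day 0. Prss22, a serine protease gene, had 20.4, 12.7 and 43.8 TPM at day 9 and 241, 165 and 196 TPM at day 14. The single gene lower at day 14 was the metallothionein gene Mt2, with 1989, 1778 and 1540 TPM at day 9 and 719, 769 and 705.0 TPM at day 14. Without the filter on low values there were 0 calls (2283 genes had an unadjusted p under 0.05), and all 5 genes lost their calls. Leaving out a mouse also took the calls of Pigr (limma adjusted p = 0.0553 without mouse 13), Slc26a4 (0.05275 without mouse 12), Prss22 (0.0527 to 0.193 without any mouse but 13) and Mt2 (0.0518, 0.071, 0.104 and 0.154 without mouse 14, 15, 11 or 12). The count was 2 without mouse 12, 10 without mouse 11, 47 without mouse 14 and 80 without mouse 16.

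From day 14 to day 20, 3 of 13549 genes (0.0221%) were called, 1 (0.00738%) higher and 2 (0.0148%) lower, with 1116 genes at an unadjusted p under 0.05. They were named after their values were seen: the immunoglobulin segment Igkv12-46, the ribosomal pseudogene Rpl23a-ps3 and the gene model Gm13493. Reads of the first 2 can be shared with near-identical copies, and without mouse 14 there were 0 calls (limma, 1260 genes at an unadjusted p under 0.05). No colonocyte gene was called, and the summed list level was 4469, 729 and 2316 TPM at day 20 against 946, 663 and 177 TPM at day 14, with the lowest day 20 mouse below the highest day 14 mouse. Cxcl5 had 159, 419 and 187 TPM at day 20, and Ltf 1643, 2980 and 1907 TPM, both above every uninjured mouse. The comparisons with days 0, 6, 9 and 20 share the day 14 mice.

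The anal change was then set against that of the rectum in the same 7 mice, as the difference of the 2 log2 responses. The main fit took the 2 sections of a mouse as separate samples and did not use their pairing. A fit with the mouse as a block was an alternative and gave 243 calls, 32 with a higher and 211 with a lower response in the anus. In the main fit, 303 of 14700 genes (2.06%) were called, 71 (0.483%) with a higher and 232 (1.58%) with a lower response in the anus. Lypd8 and Krt8 were called with a lower response in the anus. Lypd8 had 25310 to 28401 TPM in the rectum at day 0 and 30074.5 to 39560 TPM at day 14 (difference of responses -5.10 ± 0.92, SE; limma adjusted p = 0.0109, and 0.0593 without mouse 2). Krt8 had 4166 to 5044 TPM in the rectum at day 0 and 3695 to 4640 TPM at day 14 (difference -4.47 ± 0.72, SE; limma adjusted p = 0.0056). The 12 named anal falls and 12 named anal rises were chosen for large differences in these same anal samples, which favours a call here. Of the 12 named anal falls 7 were called here with a lower anal response, and Car1, Sycn, Gsdmc4 and Mep1a joined them when the mouse was a block (limma adjusted p of 0.0336, 0.039, 0.039 and 0.018, against 0.188, 0.0879, 0.0542 and 0.0764 without it). These 4 genes and Aqp8 had lower means in the rectum too at day 14 (means ± SD of 4 mice at day 0 and 3 at day 14). Car1 had 3940 ± 701 TPM at day 0 and 1341 ± 963 TPM at day 14, Sycn 2825 ± 302 and 815 ± 530 TPM, and Gsdmc4 829.6 ± 54.5 and 308 ± 73.1 TPM. Mep1a had 363 ± 24.2 and 149 ± 106 TPM, and Aqp8 1010 ± 149 and 352 ± 295 TPM. Of the 12 named anal rises only Slc26a4 was called.

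Clca4b, a chloride channel accessory gene with close paralogs, had 5.05 to 36.7 TPM in the rectum at day 0 and 260.5, 1793 and 1070 TPM at day 14, while the anus had 5.75 to 12.9 TPM at day 0 and 2.92, 11.8 and 3.04 TPM at day 14 (difference -6.20 ± 0.98, SE; limma adjusted p = 0.00518). S100a8 had the largest difference among the named genes, -6.52 ± 1.29 (SE; limma adjusted p = 0.0201). The rectum held at most 1.27 TPM at day 0 and 72.9, 658 and 2032 TPM at day 14, whereas the anus held 130 to 524 TPM at day 0 and 335, 697 and 2249 TPM at day 14. The calls of S100a8 and S100a9 were lost without mouse 15 (limma adjusted p of 0.122 and 0.131), mouse 1 (0.069 and 0.0694), mouse 2 (0.0686 and 0.0928) or mouse 4 (0.0512 and 0.054), and that of S100a8 without mouse 3 (0.0506).

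On the other side, Wfdc2, a secreted protease-inhibitor-like protein gene of ductal epithelium, had 151 to 375 TPM in the anus at day 0 and 1184, 608 and 767 TPM at day 14, and 548 to 851 TPM in the rectum at day 0 and 408 to 425 TPM at day 14 (difference 2.59 ± 0.41, SE; limma adjusted p = 0.00553). Cxcl17, a mucosal chemokine gene, had 0.960 to 1.07 TPM in the anus at day 0 and 19.7, 8.74 and 21.1 TPM at day 14, and at most 0.866 TPM in the rectum on either day (difference 2.57 ± 0.39, SE; limma adjusted p = 0.00391, and 0.291 with a pseudocount of 0.1 TPM). Slc26a4 reached 10.5 to 15.3 TPM in the anus and 0.386 to 2.56 TPM in the rectum at day 14 (difference 2.80 ± 0.41, SE; limma adjusted p = 0.00368). Mfap3l, a membrane glycoprotein gene, had the largest positive difference among the named genes, 2.94 ± 0.32 (SE; limma adjusted p = 0.000538). The rectum had 14.05 to 17.8 TPM at day 0 and 1.07 to 2.29 TPM at day 14, while the anus had 7.78 to 15.1 TPM across both days. The count was 850 without mouse 14, and 109, 113, 137 and 199 without mouse 16, 2, 15 or 1.

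**Figure D5:**
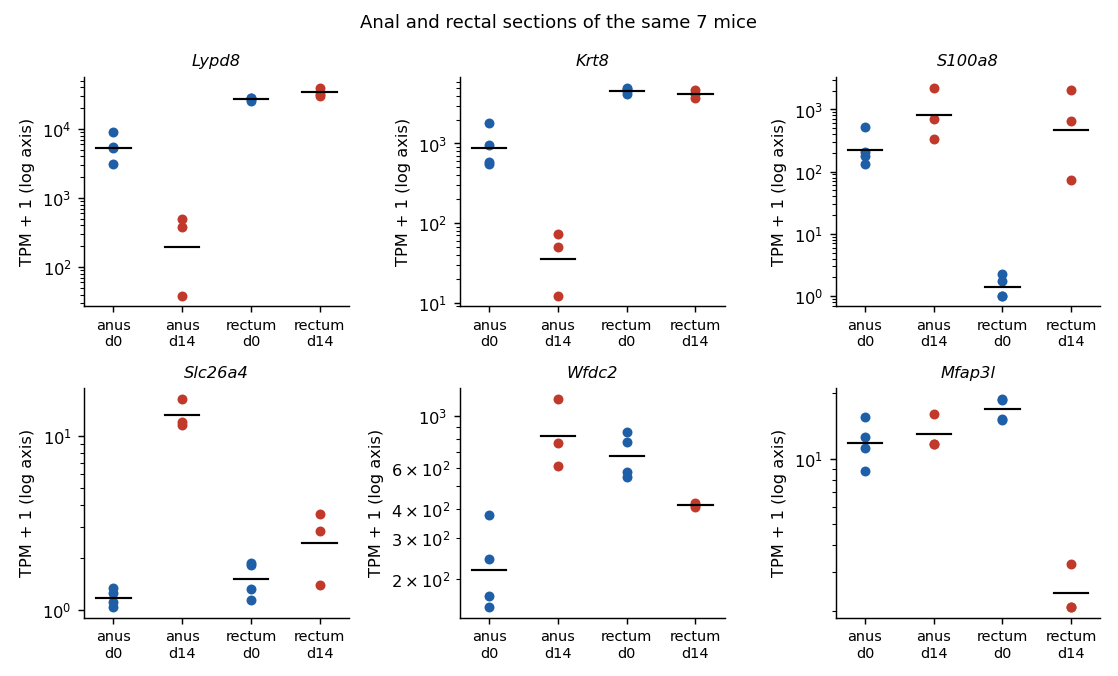
Lypd8, Krt8, S100a8, Slc26a4, Wfdc2 and Mfap3l in the anal and rectal sections of the 4 day 0 mice (blue) and 3 day 14 mice (red), as TPM + 1 on a log axis with bars at geometric means. Lypd8 and Krt8 are low at day 14 in the anus and not in the rectum, S100a8 starts near 0 in the rectum only, and Mfap3l is low at day 14 in the rectum only.

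At the level of single transcripts, 273 of 24648 (1.11%) were called, 126 higher and 147 lower, in 245 genes, of which 208 were also called as genes. No gene had 1 transcript called higher and another called lower (limma, 0 genes; 2994 transcripts had an unadjusted p under 0.05). Cdhr5 and Tm4sf20 had both tested transcripts called, and the main transcript of Cdhr5 made up 66.0% of the gene's TPM at day 0 and 55.5% at day 14. For Il1b the main transcript made up 73.8% at day 0 and 96.4% at day 14, but it missed the threshold (limma adjusted p = 0.0551). The count of called transcripts was 0 without mouse 16, 18 without day 0 mouse 2, 31 without day 0 mouse 1, 38 without mouse 14, 79 without mouse 15, 98 without day 0 mouse 3 and 165 without day 0 mouse 4.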

How the data were processed

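RNA was sequenced from Illumina stranded mRNA libraries as single-end 75-base reads, per the labels' protocols. CASAVA, kallisto and the mm10 genome are named in the submitters' processing notes, with no versions. The deposited values are transcript abundances that the authors computed in TPM. The table repeated 1318 rows, which were dropped, after which each column summed to 1000000, and transcripts were summed to 30452 genes. Transcripts without a gene identifier held 1.11% to 2.83% of TPM in the 7 anal samples. Depth is unknown. Log2(TPM + 1) was tested with limma 3.58.1 (R 4.3.3, trended variances), Benjamini-Hochberg adjustment and a filter of 1 TPM reached by at least the number of samples in the smaller group. The script was tested on simulated data. Named genes were the 12 largest rises and 12 largest falls (4 and 4 in other comparisons) among called genes with a mean of at least 8 TPM in the higher group, no overlap and a proper symbol, plus list members. Il36a, Il36b and Il36g were matched by synonym, and Il36rn and Krt85 were not found. The gene lists and comparisons were chosen with earlier results of these data known. Anal and rectal sections of 1 mouse are paired by the labelled animal. Deviations of same-mouse sections from their group means correlated at -0.07 to 0.29. Alternatives were another pseudocount, other filters, TMM scaling, a shared fit, removal of or adjustment for muscle genes, and omission of each mouse.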

Additional observations from a re-analysis of the deposited data

Results flagged for a closer look

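In 6 of 64 sets of day 0 values checked (genes on the log2 scale, lists as summed TPM), 1 uninjured mouse lay far from the other 3 (its gap to the nearest mouse over the whole range, above Dixon's 95% critical value). Chance gives about 1 in 20 such sets. For Dmbt1 (ratio 0.9585) and Muc13 (0.942) it was mouse 4, the highest, with 1227 and 691 TPM against at most 340 and 279 TPM. For the summed neutrophil list (0.88) and chemokine and cytokine list (0.893) it was mouse 1, the highest, with 1571 and 1309 TPM. For the summed basal squamous list (0.98) and crypt stem cell and Wnt target list (0.882) it was mouse 1, the lowest, with 2423 and 21.7 TPM. The day 14 group of 3 is too small for this check.

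The 24 named genes were chosen for large anal differences in these same anal samples, which favours a difference from the rectum. For 8 of the 24, the anal and rectal responses at day 14 differed by the test of the difference itself (limma, adjusted p under 0.05), against 2.06% of all 14700 genes tested. Only Slc26a4 had the higher response in the anus, by 2.80 on the log2 scale. The response was lower in the anus for Dmbt1 (-5.58), Lypd8 (-5.10), Muc13 (-5.00), Krt8 (-4.47), Lgals4 (-4.31), Cdhr5 (-4.07) and Tm4sf20 (-3.86). Without mouse 2 the calls of Lypd8 and Tm4sf20 were lost (limma adjusted p of 0.0593 and 0.0558).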

How the results depend on the processing

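Of 61 genes named or called on a list for day 14 against day 0, 24 stayed called in every setting that tested them, and none of the 61 changed direction. Of these genes 35 lost their call without day 0 mouse 2, 28 with no filter on low values, 26 without mouse 16, 22 without mouse 15 and 10 with TMM scaling, and 0 without muscle and mitochondrial genes or with muscle level as a covariate. The 588 calls became 246 with no filter and 1175 with all 19 anal samples in 1 fit, and 162 (without mouse 16) to 557 when 1 mouse was left out. Against day 6, 872 calls became 487 with no filter and 272 (without day 6 mouse 10) to 623 without 1 mouse. With all 19 samples the split was 567 higher and 684 lower. Against day 9, 27 calls became 0 with no filter, 145 with all 19 samples and 2 (without mouse 12) to 80 (without mouse 16). Between days 20 and 14, 3 calls became 6 with no filter and 0 (without mouse 14) to 10 (without mouse 19), and 6 without mouse 15 or 18. For the anus against the rectum, 303 calls became 109 (without mouse 16) to 850 (without mouse 14), 437 with TMM scaling and 243 when mouse entered as replicate block. With the block the split was 32 higher and 211 lower, and beside 4 named genes gained it changed no named call. The 273 transcript calls became 178 with a pseudocount of 0.1 TPM and 0 (without mouse 16) to 165. The number of expressed genes did not pass its exact permutation test at 5 TPM either, and the other sample summaries had no alternative. The cause of these shifts was not tested. Depth is unknown, so low values could not be given an interval.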
